A study of Schmidtea mediterranea with 11 samples.

Results

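In planarians, the transcripts described here were lower in whole worms after knockdown of Smedwi-2, and stayed near or above their control level after the 3 other knockdowns sampled with it. They were chosen on log2(TPM+1), where TPM is a read count scaled by transcript length and by the size of the library, so that each library sums to 1000000. A transcript was taken if the mean of the 3 control libraries was 3 or more and if the Smedwi-2(RNAi) library lay more than 0.8 below the lowest of these. The Smed-H2B(RNAi) library, the mean of the 3 bruli(RNAi) libraries and the mean of the 3 mbnl(RNAi) libraries each had to lie above the control mean minus 0.3. The knocked-down transcript itself, comp756_c0_seq1, was left out. The rule gave 119 transcripts of 11285 with a control mean of 3 or more, or 1.05% of these, and of 26562 in the table. Smedwi-2(RNAi) is 1 library, so the drop that chose these transcripts is a description and has no test.

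SMEDWI-2 is a Piwi protein of the neoblasts, the dividing stem cells from which planarians renew their tissues. Piwi proteins bind piRNAs, small RNAs that guide them to other transcripts, in planarians as in other animals. Worms without SMEDWI-2 are known to keep neoblasts for some time while the progeny of these cells fail to replace ageing tissue. Smed-H2B encodes a histone that neoblasts need to persist, bruli (Smed-bruno-like) an RNA-binding protein of the CELF family needed for neoblast maintenance, and the mbnl genes encode RNA-binding proteins of the Muscleblind family.

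The groups were Smedwi-2(RNAi) and Smed-H2B(RNAi), with 1 library each and no stated day, and bruli(RNAi), mbnl(RNAi) and control(RNAi), with 1 library each at days 20, 25 and 30. The mbnl knockdown was directed at Smed-mbnl-1 and Smed-mbnl-like-1, -2 and -3 together, and control worms received dsRNA of gfp, a gene planarians do not have. The worms were adult, asexual Schmidtea mediterranea of the Berlin-1 strain, which descends from a single animal, and RNA came from whole worms. How many worms entered each library is not given in the sources used here. The values of low transcripts are whole multiples of what 1 read is worth, which returned read counts and transcript lengths for each of the 119 transcripts and 5634225 to 8911204 reads per library, with 8550585 in Smedwi-2(RNAi). In whole-worm RNA, fewer cells of a type and less RNA per cell cannot be told apart. The unstated day and the single library cannot be told apart from the knockdown itself.

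The target was lowest in its own knockdown. comp756_c0_seq1 had 11.6 TPM in Smedwi-2(RNAi), against 108, 115 and 115 TPM in control(RNAi) at days 20, 25 and 30, a difference of -3.18 on the log2(TPM+1) scale. It had 57.9 TPM in Smed-H2B(RNAi), 59.9, 52.6 and 45.2 TPM in bruli(RNAi) and 117, 129 and 119 TPM in mbnl(RNAi). The contig is 10094 nt long, and whether it also holds sequence of another gene is not known here. Neoblast markers were not low in the Smedwi-2(RNAi) library. The stem cell Piwi gene smedwi-1 had 260 TPM there, against 193 to 212 TPM in control(RNAi), and pcna, which encodes the sliding clamp of DNA replication, had 92.0 TPM, against 55.2 to 56.9 TPM. Of the early progeny markers, prog-1 had 334 TPM, against 268 to 391 TPM in control(RNAi), and prog-1-1 had 348 TPM, against 319 to 487 TPM. The third, prog-2-1, had 2830 TPM, against 1695 to 1985 TPM. Among RNA-binding proteins listed by the study as lower in stem cells than in differentiated cells, 39 had a control mean of 3 or more, and their median difference after Smedwi-2 knockdown was -0.07, against 0.03 over the 11285 transcripts. The part of cell composition in the drop of the 119 transcripts was not tested.

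The rule singled out less than the whole set of transcripts that were low in the Smedwi-2(RNAi) library. Of the 11285 transcripts, 308 (2.73%) lay more than 0.8 below the lowest control library there and 195 (1.73%) more than 0.8 above the highest. The 308 comprise the 119 transcripts and 189 that were left out, namely the target and those that failed a limit on another knockdown. Among the 308, 136 were 0.3 or more below the control mean after Smed-H2B knockdown, 130 after mbnl knockdown and 48 after bruli knockdown, with overlap. Over the 11285 transcripts, the 10th percentile of the difference was -0.56 after Smed-H2B, -0.16 after mbnl and -0.45 after bruli knockdown. The first quartile was -0.27, -0.02 and -0.21 in the same order. The share of the 11285 at this limit was not counted, and nothing is read from the counts. Turned upward, the same rule found 27 transcripts higher after Smedwi-2 knockdown alone. With Smed-H2B(RNAi) in the place of Smedwi-2(RNAi), 277 (2.45%) lay more than 0.8 below the lowest control and 1 passed the other limits, comp12722_c0_seq1, named here because the count is small. It had 3.54 TPM (12 reads) in Smed-H2B(RNAi) and 7.25 to 9.13 TPM in control(RNAi). The swapped rule keeps the limit on the bruli mean. The 77 core spliceosome transcripts, for example, had medians of -0.58 after Smed-H2B and -0.45 after bruli knockdown. The count of 1 is thus not a background rate for the 119.

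**Figure D1:**
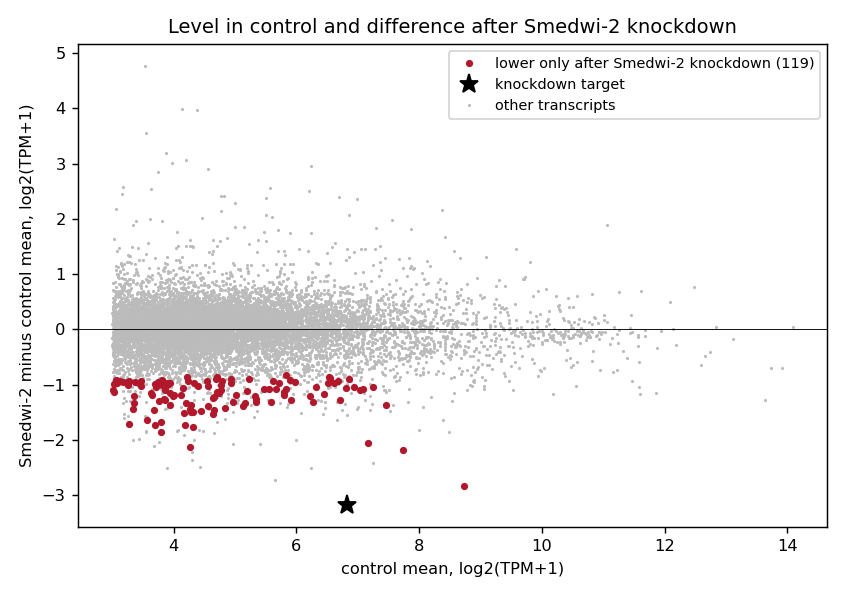
Each point is 1 transcript with a control mean of 3 or more; the horizontal axis gives the control mean and the vertical axis the Smedwi-2(RNAi) library minus that mean, both on log2(TPM+1). Red points are the 119 transcripts, the star is the target at -3.18, and grey points below the red ones were also low after another knockdown or failed the limit on the lowest control library.

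The size of the drop is written here as a difference in log2(TPM+1). Its median was -1.10, with quartiles of -1.32 and -0.97, and the values ran from -2.84 to -0.83. A drop of 1.5 or more was seen for 14 transcripts, one of 1 to 1.5 for 66 and one under 1 for 39. These values are what the rule used. At its edges, the transcript just inside the limit of 0.8 lay at -0.801 relative to the lowest control and the one just outside at -0.796. For the limit of -0.3, the nearest values inside and outside were -0.299 and -0.310 for Smed-H2B(RNAi), -0.294 and -0.376 for the bruli mean and -0.298 and -0.305 for the mbnl mean. For the control mean they were 3.01 and 2.99. No gap in the data separates the 119 transcripts from their neighbours at the limit of 0.8.

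The deepest drop was that of comp155_c2_seq1, a contig of 589 nt that was also abundant in control worms. It had 58.2 TPM in Smedwi-2(RNAi) and 498 TPM in Smed-H2B(RNAi). In bruli(RNAi) it had 333, 336 and 370 TPM, and in mbnl(RNAi) 552, 398 and 385 TPM. In control(RNAi) it had 484, 385 and 411 TPM at days 20, 25 and 30. The Smedwi-2(RNAi) value was far below the 10 others, among which the 3 bruli libraries lay below the 3 control libraries and the mbnl libraries overlapped them. The difference from the control mean was -2.84, a 7.18-fold lower level of TPM+1. From 227 reads in Smedwi-2(RNAi) and 4214 in the 3 control libraries, the ratio of read rates was 0.137, with an exact 95% interval of 0.119 to 0.156 that covers counting error only.

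The second was comp1086_c0_seq1, of 584 nt. It had 45.5 TPM in Smedwi-2(RNAi) and 256 TPM in Smed-H2B(RNAi). After bruli knockdown it had 251, 256 and 287 TPM, after mbnl knockdown 299, 235 and 237 TPM, and in control(RNAi) 222, 213 and 200 TPM. The 7 other knockdown libraries thus all lay above the 3 control libraries, while Smedwi-2(RNAi) lay far below them. The difference from the control mean was -2.19, or 4.57-fold lower in TPM+1, and the ratio of read rates was 0.214 (0.183 to 0.250, from 176 and 2084 reads). Neither transcript has a gene name in the sources used here.

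**Figure D2:**
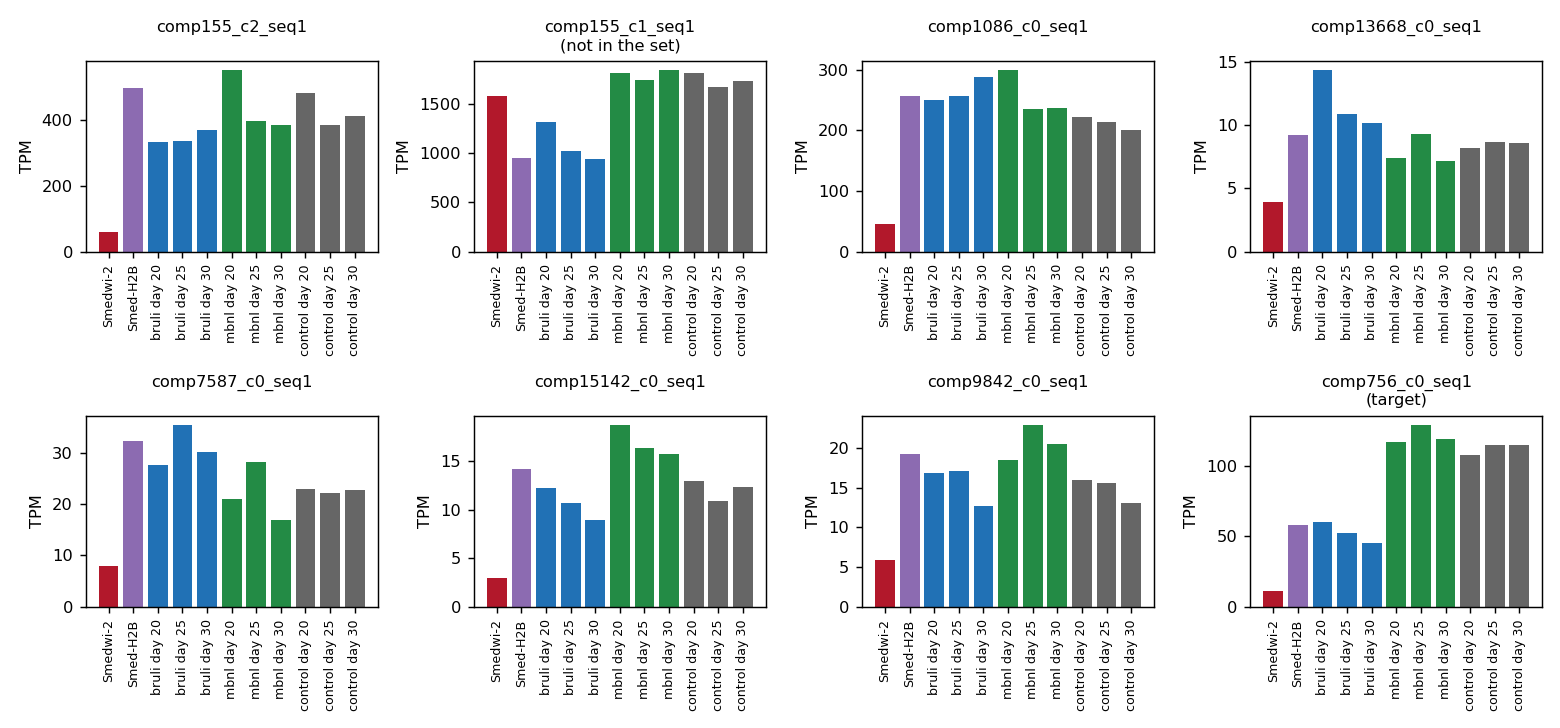
Bars give TPM in each of the 11 libraries, from Smedwi-2(RNAi) on the left to control(RNAi) on the right, for 6 of the transcripts, for a contig of the same assembly component that is not in the set and for the knockdown target. In the 6 transcripts the Smedwi-2(RNAi) bar is the lowest, while comp155_c1_seq1 has 1580 TPM there, against 1679 to 1815 TPM in control(RNAi).

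In 3 cases the table holds a second contig of the same assembly component, and these are named although the naming rule does not cover them. comp155_c1_seq1, of 555 nt, had 1580 TPM in Smedwi-2(RNAi) and 1815, 1679 and 1739 TPM in control(RNAi), a difference of -0.14, where comp155_c2_seq1 had -2.84. It had 950 TPM in Smed-H2B(RNAi) and 1321, 1028 and 945 TPM in bruli(RNAi), differences of -0.88 and -0.68, where comp155_c2_seq1 was at 0.23 and -0.29 relative to the control mean. The 2 contigs of 1 component thus had different patterns over the knockdowns. comp5368_c0_seq1 had 11.002 TPM in Smedwi-2(RNAi) and 28.3, 24.3 and 24.2 TPM in control(RNAi), and its partner comp5368_c1_seq1 had 33.7 TPM and 33.1, 30.1 and 27.9 TPM. comp7330_c0_seq1 had 3.62 TPM, against 9.05, 14.1 and 12.8 TPM in control(RNAi), and comp7330_c1_seq1 had 12.9 TPM, against 17.9, 19.9 and 19.0 TPM. In the third pair both contigs were below every control library, by different amounts. Whether the contigs of a component come from 1 gene is not given in the sources used here, and reads of near-identical contigs may have been divided between them.

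Across the libraries, the 119 transcripts were set apart in Smedwi-2(RNAi). It held the lowest value of the 11 libraries for 119 of them, as it did for 20.3% of the 11285 transcripts, and the gap to the next lowest library had a median of 0.83 and ran from 0.284 to 2.495 on the log2 scale. Not 1 of the 119 was more than 0.8 below its lowest control in another knockdown library. Over all 11285 transcripts, this was so for 0.877%, 1.83% and 2.84% in bruli(RNAi) at days 20, 25 and 30, and for 0.222%, 0.47% and 0.735% in mbnl(RNAi). The limits on the other knockdowns fix most of this, and nothing is read from it. The 3 control values, the lowest of which the rule used, had a median SD of 0.11 for these transcripts, against 0.12 over the 11285 (n = 3). Nothing is read from this either.

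**Figure D3:**
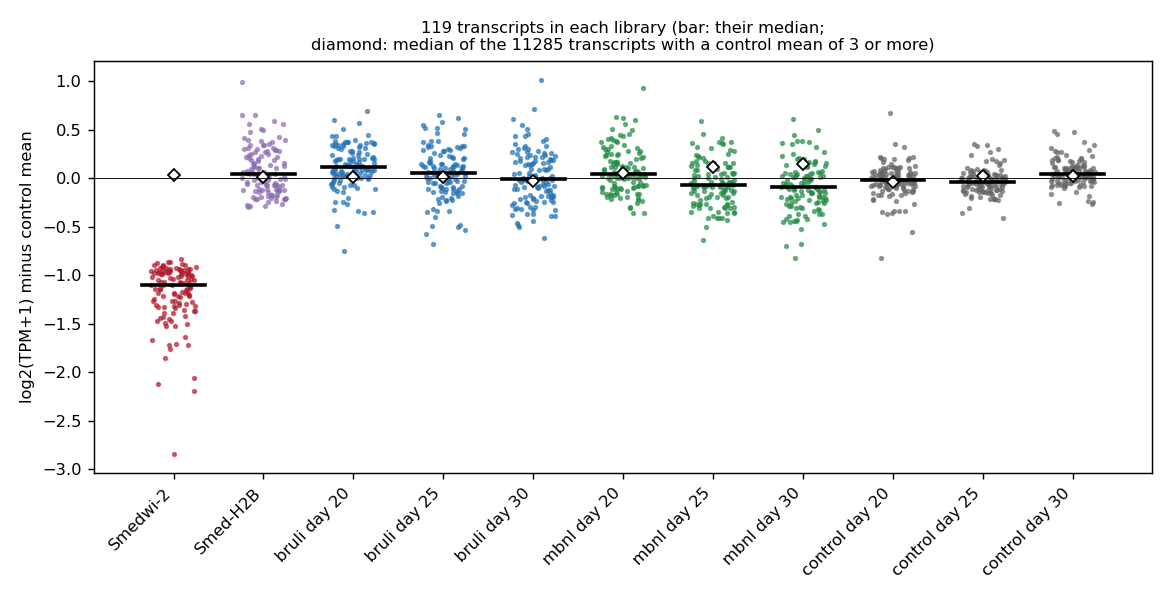
Each point is 1 of the 119 transcripts, plotted as its log2(TPM+1) in the library on the horizontal axis minus its control mean; the bar is their median and the diamond the median of the 11285 transcripts. The median is -1.10 in Smedwi-2(RNAi) and lies between -0.09 and 0.12 in the other 10 libraries.

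In the other knockdowns the transcripts kept to a narrow band that the rule closes from below. After Smed-H2B knockdown the median difference was 0.04 (-0.30 to 0.99), beside 0.01 for the 11285 transcripts, and 21 of the 119 were more than 0.3 above control, where 19% of the 11285 were. After bruli knockdown it was 0.04 (-0.29 to 0.63), beside 0.00, and 16 were more than 0.3 above control, beside 11.4%. After mbnl knockdown it was -0.05 (-0.30 to 0.46), beside 0.11, and 7 were more than 0.3 above control, beside 15.1%. Hence 87 of the 119 were within 0.3 of control after each of these knockdowns, 21 were above that band in 1 of them and 11 in 2 or more. By day, the medians were 0.12, 0.05 and -0.01 at days 20, 25 and 30 of bruli knockdown and 0.04, -0.07 and -0.09 at the same days of mbnl knockdown. The medians of the 11285 transcripts at these days of mbnl knockdown were 0.06, 0.12 and 0.15. At day 30 of mbnl knockdown, 51 of the 119 lay below all 3 control libraries and 20 above all of them, and of 8028 transcripts inside the other limits of the rule, 10.4% lay below and 60.3% above. All of these differences share the 3 control libraries with the one that chose the transcripts, so they are given without a test.

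The rule set no limit on the difference between bruli and mbnl knockdown, but it bounded both means from below against control, so the calls of this contrast are not independent of the choice of transcripts. A limma fit of group and day over 15492 transcripts in the 9 time course libraries called 13 of the 119 higher after bruli than after mbnl knockdown and 4 lower, at a Benjamini-Hochberg adjusted p of 0.05. Over the 15492 transcripts 5.24% were called higher and 20% lower. Among the 8028 inside the other limits of the rule, of which the 119 are a part, 5.72% were called higher and 10.5% lower, so 13 of 119 (10.9%) and 4 of 119 (3.36%) stand on either side of these shares. The 8028 met the same limits on both means. The difference in shares was not tested and is not read as a result about the set. The changes were small, from 0.22 to 0.51 for the 13 and from -0.63 to -0.32 for the 4. In this fit the median of the 15492 transcripts was -0.11, and centring each library on its median gave 37 higher and 1 lower, with 2169 and 1643 over all transcripts in place of 812 and 3103. The number called higher fell to 1 without bruli day 25, 4 without mbnl day 25, 5 without mbnl day 30 and 8 without control day 25. The number called lower became 1 without mbnl day 25, and 2 without mbnl day 30 or bruli day 30.

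Among the transcripts lower after bruli than after mbnl knockdown, comp15142_c0_seq1, of 463 nt, changed most. It had 12.2, 10.7 and 8.96 TPM in bruli(RNAi), 18.7, 16.3 and 15.7 TPM in mbnl(RNAi) and 12.9, 10.9 and 12.3 TPM in control(RNAi). Its lowest mbnl library exceeded its highest bruli library, and the limma difference was -0.63 ± 0.11 (SE, adjusted p = 0.0042). The call held in 18 of 18 alternative settings, with adjusted p from 0.0036 to 0.030. In Smedwi-2(RNAi) it had 2.94 TPM from 9 reads and in Smed-H2B(RNAi) 14.1 TPM. comp9842_c0_seq1, of 1606 nt, had 16.9, 17.1 and 12.6 TPM in bruli(RNAi) and 18.4, 22.9 and 20.5 TPM in mbnl(RNAi), against 15.9, 15.6 and 13.1 TPM in control(RNAi). The limma difference was -0.39 ± 0.12 (SE, adjusted p = 0.038), but it passed in only 8 of 18 settings (0.018 to 0.19). It had 5.83 TPM in Smedwi-2(RNAi) and 19.2 TPM in Smed-H2B(RNAi). The other two were comp2224_c0_seq1 and comp1313_c0_seq1, at -0.34 and -0.32, named because the count is small.

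Among those higher after bruli knockdown, comp13668_c0_seq1, of 816 nt, had the largest difference. It had 14.3, 10.9 and 10.2 TPM in bruli(RNAi) and 7.39, 9.25 and 7.19 TPM in mbnl(RNAi), against 8.16, 8.67 and 8.60 TPM in control(RNAi). The limma difference was 0.51 ± 0.15 (SE, adjusted p = 0.034), and it passed in 10 of 18 settings (0.0076 to 0.13). In Smedwi-2(RNAi) the transcript had 3.89 TPM from 21 reads. comp7587_c0_seq1, of 926 nt, had 27.7, 35.4 and 30.1 TPM in bruli(RNAi) and 21.1, 28.3 and 17.0 TPM in mbnl(RNAi), against 22.9, 22.2 and 22.7 TPM in control(RNAi). Its difference was 0.49 ± 0.13 (SE, adjusted p = 0.025), with 12 of 18 settings past the threshold (0.011 to 0.12), and its groups overlapped at the day 25 library of mbnl. It had 7.99 TPM in Smedwi-2(RNAi) and 32.2 TPM in Smed-H2B(RNAi). The separate limma counts against control, which the rule did use, were 5 higher and 1 lower after bruli knockdown, beside 6.75% and 11.3% of all, and 3 higher and 0 lower after mbnl knockdown, beside 4.31% and 1.68%. Nothing is read from these.

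The day term of the limma fit was shared by bruli(RNAi), mbnl(RNAi) and control(RNAi). It thus asks only about a change with day that these groups have in common. Whether a transcript changed with day within a single knockdown was not tested. Between days 30 and 20, the fit called 0 of the 119 transcripts. Over the 15492 transcripts it called 0 higher and 3 lower (0.0194%), and at an unadjusted p under 0.05 the counts were 13 of the 119 and 1835 of the 15492 (11.8%). limma voom on the recovered reads also called 0 of the 119. In simulated data of this size, the same fit found 88% of transcripts changed by 1 and 36% of those changed by 0.5 on the log2 scale between days, so small changes with day would mostly have been missed.

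The recovered reads give the counting error behind each drop. The 119 transcripts had 3 to 1713 reads there, with a median of 78, and 34 to 8283 reads, with a median of 405, in the 3 control libraries together. The ratio of the Smedwi-2(RNAi) to the control read rate had a median of 0.438 and ran from 0.137 to 0.553. Its exact 95% interval lay below 1 for 119 of 119, and below 0.574, the ratio at a drop of 0.8, for 75. The remaining 44 had intervals that reached this ratio. The ratio is taken against the 3 control libraries pooled, while the rule used the lowest of them, so the split does not place a transcript relative to the limit of the rule. These intervals leave out the spread between worms and between libraries, which 1 library does not show, and low values in this library chose the transcripts.

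**Figure D4:**
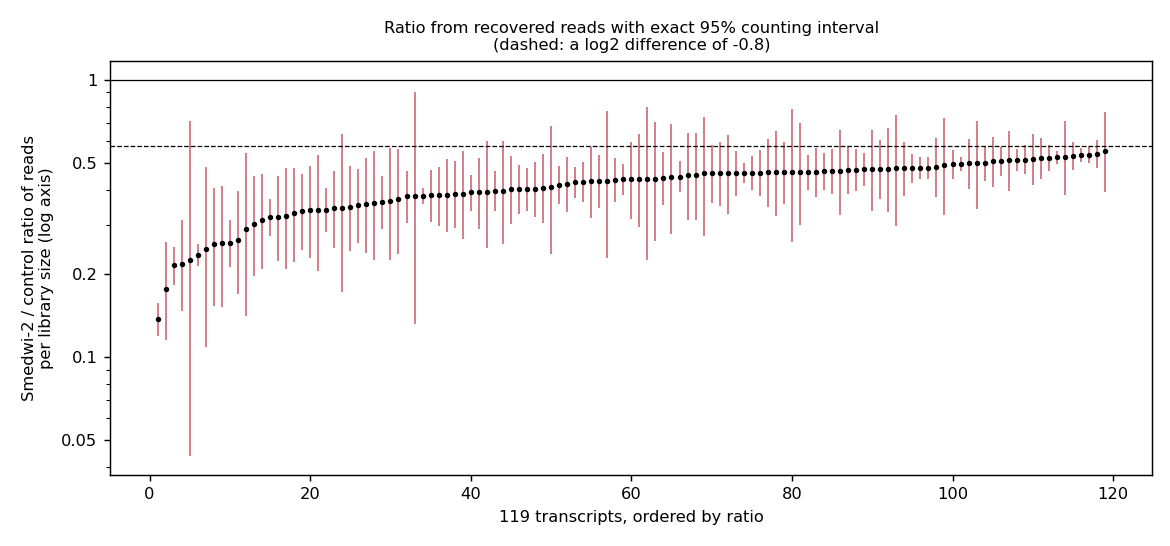
Points give the ratio of read rates in Smedwi-2(RNAi) to the 3 control libraries for each of the 119 transcripts, in rising order on a log axis, and vertical lines their exact 95% counting intervals. The intervals lie below the solid line at 1, and 75 of them lie below the dashed line at 0.574.

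The transcripts were spread over the range of control levels and lay towards short contigs. Their control mean on log2(TPM+1) ran from 3.01 to 8.73 with a median of 4.44, beside 4.68 for the 11285 transcripts. They made up 1.34% of transcripts with a control mean of 3 to 4, 1.01% of those from 4 to 5, 0.911% from 5 to 6, 1.1% from 6 to 7 and 0.617% of those at 7 or more. Their median length was 1145 nt (202 to 14097), beside 1473 nt for the transcripts of the same control level whose length was recovered. The 11281 lengths were divided into 5 classes of near-equal number, and from the shortest class to the longest 38, 28, 22, 14 and 17 were in the set. This was 1.68%, 1.24%, 0.977%, 0.621% and 0.754% of each class. The wider set of 308 leaned the same way, from 3.9% in the shortest class to 1.51% in the longest, and the 27 transcripts of the upward rule had a median of 1219 nt. Short contigs collected fewer reads, with a median of 280 reads over the 3 control libraries in the shortest class and 1362 in the longest. The part of read depth in the lean towards short contigs was not tested.

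**Figure D5:**
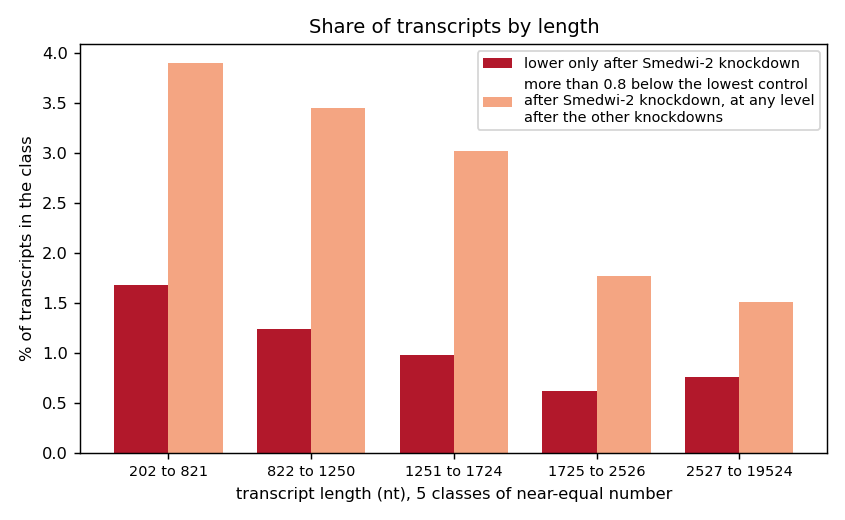
Bars give the percentage of transcripts, in each of the 5 classes of transcript length in nt, that were lower after Smedwi-2 knockdown alone (dark, 1.68% in the shortest class and 0.754% in the longest) and that lay more than 0.8 below the lowest control at any level after the other knockdowns (light, 3.9% and 1.51%).

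The tables of the study that pair transcripts with a name or best human hit hold 338 transcripts with a control mean of 3 or more, mostly RNA-binding proteins, and 0 of them were among the 119. The medians of these 338 were -0.39 after Smed-H2B and -0.33 after bruli knockdown, so the limits on the other knockdowns shut out 222 of them at any Smedwi-2 value. Of the 116 inside those limits 0 were members, which allows a share of up to 2.59%, beside 1.48% of the 8028, so a difference was not detectable. None of the 119 can therefore be given a gene name or a function here. In the Piwi pathway and germ granule list, drawn from best human hits, 7 transcripts besides the target had a median difference of 0.35 after Smedwi-2 knockdown, beside 0.03 over all, and differences from 0.08 to 0.67. The second Piwi transcript besides smedwi-1, comp1258_c0_seq1, had 268 TPM in Smedwi-2(RNAi), against 208, 219 and 224 TPM in control(RNAi). Of the transcripts with DDX4 as best human hit, the germ granule helicase Vasa, comp1985_c0_seq1 had 142 TPM, against 91.2, 90.1 and 89.2 TPM, and comp2082_c0_seq1 had 107 TPM, against 66.6, 65.5 and 67.3 TPM. The hits to TDRD12 and TDRD9, Tudor proteins of the piRNA pathway, had 25.1 and 23.2 TPM, within their control ranges of 19.4 to 25.6 and 19.8 to 23.8 TPM. The hit to TDRKH, a Tudor protein that acts in piRNA maturation in mice, had 55.3 TPM, against 39.6, 44.3 and 40.6 TPM. So the target was the single low transcript of its pathway list in this library. Above every control library were 5 of the 7 others, beside 41.9% of the 8028 transcripts inside the other limits of the rule. Those 8028 include 0 of the list, so the shares are of unlike transcripts. The share over the 11285 transcripts was not counted, and nothing is read from the difference. Without the target, the list had a median of -0.87 after Smed-H2B knockdown and of -0.78 after bruli knockdown.

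The other lists held 0 transcripts more than 0.8 below the lowest control in Smedwi-2(RNAi). The 7 transcripts of small RNA proteins such as Argonaute and Dicer had a median difference of 0.17, and 0 were past 0.8 in either direction. The 47 RNA helicases had a median of 0.05, with 1 more than 0.8 above the highest control and 0 more than 0.8 below the lowest. The 28 SR and hnRNP proteins, which regulate splicing, had 0.05, and the 77 core spliceosome transcripts 0.15, with 0 past 0.8 in either direction. After Smed-H2B knockdown the same spliceosome list had a median of -0.58, and after bruli knockdown -0.45. Over the 268 RNA-binding proteins, 0 lay more than 0.8 below the lowest control after Smedwi-2 knockdown and 1 above the highest, where the shares over all 11285 transcripts were 2.73% and 1.73%. The 13 RNA-binding proteins listed as much higher in stem cells had a median of 0.31 in Smedwi-2(RNAi), -0.95 in Smed-H2B(RNAi) and -0.87 in bruli(RNAi).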

How the data were processed

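RNA of whole worms was sequenced in 11 libraries. The authors trimmed reads with Flexbar, removed rRNA reads in silico, used Bowtie2 2.1.0 to align the rest to the Dresden transcriptome and HTSeq 0.6.1p1 to count them, and deposited TPM values in 1 table. The submitters' processing notes also name CASAVA 1.8.2, without a role. How counts became TPM is not given in the sources used here. No genome was used, and transcripts carry assembly names.

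TPM was analysed as log2(TPM+1). A transcript's values in a library are whole multiples of 1 read's worth. Such a step was found for 25764 of 25766 transcripts above 0 (whole within 0.001 reads), and step and whole length for 11281 of 11285 with a control mean of 3 or more. Ratios of read rates have exact Clopper-Pearson 95% intervals, for counting error only.

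The 9 time course libraries were fitted in limma 3.58.1 (R 4.3.3) with terms for group and day and a mean-variance trend, on 15492 transcripts with a mean above 1.5, with 4 residual degrees of freedom and Benjamini-Hochberg adjustment. The fit was tested on 15492 simulated transcripts. Bruli against mbnl found 83% of those changed by 1 and 35% of those changed by 0.5 (log2), with 5 false calls among the unchanged transcripts. Day 30 against day 20 gave 12 false calls. Day was kept as the block because the study compares knockdowns with the control of their day. Deviations of same-day libraries correlated at -0.01 to 0.26 (mean 0.15, 9 pairs) and of other days at -0.07. Each group was centred on its own mean over the days, so the value for other days follows from the same-day value. Nothing is read from the contrast between them. Whether libraries of a group are separate batches of worms is not stated, so p-values measure the spread between these libraries.

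The transcripts named are the target, the 2 deepest drops, and the 2 highest and 2 lowest called in each tested contrast; exceptions are marked. The set, the lists and the tests were chosen with earlier results of these data known. The transcripts taken as markers follow an earlier description of these data. Alternatives were other pseudocounts, limits, filters and scalings, no trend, no block, fewer groups and leaving out each library. voom on recovered reads, and TPM without the 10 most abundant transcripts of each library, were added after seeing the data. Figures used matplotlib 3.10.9.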

Additional observations from a re-analysis of the deposited data

Results flagged for a closer look

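By limma's test of bruli minus mbnl, 13 transcripts of the set were called higher after bruli knockdown and 4 lower. The 2 highest were comp13668_c0_seq1 (0.51) and comp7587_c0_seq1 (0.49), and the 2 lowest comp15142_c0_seq1 (-0.63) and comp9842_c0_seq1 (-0.39), all on the log2(TPM+1) scale. Of the 15492 transcripts tested, 5.24% were called higher and 20% lower, and of the 8028 inside the other limits of the rule 5.72% and 10.5%. These limits act on both means, so the counts are not independent of the choice of transcripts. The 8028 met the same limits, and the difference in shares was not tested and is not read as a result about the set. No group holds 4 or more libraries, so no library was tested as an outlier.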

How the results depend on the processing

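The size of the set depends on its limits. A pseudocount of 5 gave 66 transcripts (56 shared with the 119), a control mean of 4 or more 76, a drop of more than 1 52 and of more than 0.6 282, and a limit on the other knockdowns of 0.1 53 and of 0.5 208. The other scalings and filters gave 103 to 169, with 84 shared after median centring (103 in all) and 88 after quantile normalization (108), and leaving out 1 library 106 to 165, highest without control day 20. TPM without the 10 most abundant transcripts gave 132, with 113 shared. For bruli minus mbnl, the number called higher was 5 with no filter, 6 with no trend, 27 after quantile normalization and 37 after median centring, which also gave 1 called lower. It ran from 1 to 18 when 1 library was left out, and the number called lower from 1 to 6. Without the replicate block for day, 10 were higher and 3 lower, and voom gave 10 and 5. For day 30 minus day 20, taken over the groups together, 0 were called in either direction under each of the 17 alternatives. The Smedwi-2 difference of the 6 named transcripts kept its sign under every alternative run. Each alternative used the same Smedwi-2(RNAi) library, and the rule chose the transcripts on this drop, so nothing is read from the kept sign. The difference was -2.92 to -2.75 for comp155_c2_seq1 when 1 control library was left out. With a pseudocount of 5 it shrank to -0.60 for comp13668_c0_seq1 and -0.87 for comp9842_c0_seq1. Adding 5 to every value before the log shrinks a difference most where TPM is low, as it is for these 2 transcripts. The cause of the other shifts was not tested. Transcripts with few reads limit the precision of single ratios, and 1 Smedwi-2(RNAi) library gives no spread.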
